A study of Mus musculus with 9 samples.

Results

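The tripartite motif (TRIM) genes encode a family of ubiquitin ligases. They were taken here as every gene of the deposited count table whose mouse symbol is Trim followed by a digit. The rule used no expression value, found 67 of 22001 genes, and left out 1 member that is not reported here. Messenger RNA levels were measured by RNA sequencing in bone marrow-derived macrophages of C57BL6 mice. There were 9 libraries, 3 per label, all at 6 h. The untreated-labelled libraries, A2, B2 and C2, carry the treatment label Blank and are described as given PBS, a saline buffer. The Pam3CSK4-labelled libraries, D1, D2 and D3, are described as given 100 µg/ml of Pam3CSK4, a synthetic bacterial-type lipopeptide sensed by Toll-like receptor 2. The 3SL-labelled libraries, A2plus, B2plus and C2plus, are described as given 100 µg/ml of Pam3CSK4 with 3SL at 100 µl/ml, a volume with no stated amount. Pamc4 stands in their titles and Pamc4-CSL in their treatment tag, and whether CSL is 3SL was not stated. No further allele or agent is named for any group. Nothing in the labels ties the libraries of one group to separate animals or cultures, so the p-values reflect the spread between libraries alone, which may be technical.

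A TRIM protein is built from an N-terminal RING finger, 1 or more B-box zinc fingers and a coiled coil. The RING finger binds a ubiquitin-conjugating (E2) enzyme and directs ubiquitin to a target, while the C-terminal part selects the target and differs between classes. In macrophages the family is known for its part in Toll-like receptor, RNA sensor and DNA sensor signalling and in antiviral defence, and several members are known interferon-stimulated genes. Most members carry a SPRY domain at the C terminus. A block of neighbouring copies on chromosome 7, here called the Trim5/Trim30 cluster, holds Trim5, Trim6, Trim12a, Trim12c, Trim30a to Trim30d, Trim34a and Trim34b.

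The labels go against what the libraries contain. Tnf, which encodes an inflammatory cytokine that Pam3CSK4 is known to induce, stood at 1704 ± 46.0 CPM in the untreated-labelled, 18.4 ± 0.67 in the Pam3CSK4-labelled and 1267 ± 58.2 in the 3SL-labelled libraries (mean ± SD, n = 3 each). Every direction below therefore rests on the labels. The letter D in the library codes cannot be told apart from the Pam3CSK4 label. Total counts ran from 7472482 to 43980309 per library, and 3 counts correspond to between 0.0682 and 0.401 CPM (counts-per-million of the total). CPM values below use the library size scaled with TMM factors. The macrophage genes Adgre1, Csf1r, Cd68, Itgam and Lyz2 were present in all libraries. The summed level of 9 macrophage markers was 17830 to 18250 CPM in the Pam3CSK4-labelled libraries. This was below the 23540 to 24060 CPM of the untreated-labelled and the 22820 to 23500 CPM of the 3SL-labelled libraries. Lyz2 alone stood at 11170 to 14420 CPM over all libraries. Of the 9, 5 were called lower, 2 higher and 2 not called in the Pam3CSK4-labelled against the untreated-labelled libraries. Of all genes tested, 35.9% were called lower and 39.0% higher. The markers' median log2 change was -0.21. The 7 neutrophil and progenitor markers summed to 209.4 to 210.2, 174 to 229.5 and 179.5 to 194.8 CPM in the untreated-, Pam3CSK4- and 3SL-labelled libraries. Of the 6 tested, 3 were higher and 3 lower in the Pam3CSK4-labelled than in the untreated-labelled ones. Mpo rose from 18.9 to 40.2 CPM and Camp fell from 14.1 to 7.02 CPM. The 5 lymphocyte markers summed to at most 1.54 CPM in any library. The 5 dendritic cell markers summed to 4.14 to 5.07, 0.96 to 2.75 and 2.34 to 3.23 CPM in the same order. The 4 stromal markers summed to 11.8 to 12.9 CPM, 1.55 to 2.48 CPM and 7.03 to 9.35 CPM in the 3 groups in the same order. The part of these marker levels in the results below was not tested.

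Promoters are shown for 5 members of the family. In each, a stretch resembling the interferon-stimulated response element lies within 250 bases before a start site. That element is a short motif known from promoters of interferon-stimulated genes. The motif searched was GAAA, then any 2 bases, then GAAA, on both strands, from 250 bases before to 50 after each annotated start, in the RefSeq promoter table of build GRCm38.p6. That table holds 52 of the 67 members. Each sequence runs 5′ to 3′ on the gene's strand and stops at the last base before the start site at the latest. Capitals mark the match, which in all 5 is the reverse complement of the motif as spelled.
Trim30a: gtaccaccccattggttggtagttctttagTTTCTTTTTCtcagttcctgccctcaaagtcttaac
Trim30d: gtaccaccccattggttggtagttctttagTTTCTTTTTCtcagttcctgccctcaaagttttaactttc
Trim12c: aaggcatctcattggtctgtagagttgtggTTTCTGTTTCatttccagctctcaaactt
Trim5: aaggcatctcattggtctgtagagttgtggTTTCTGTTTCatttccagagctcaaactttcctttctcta
Trim26: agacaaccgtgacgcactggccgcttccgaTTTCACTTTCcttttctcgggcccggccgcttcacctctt

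The Trim30a sequence is chr7:104465194-104465259 on the minus strand, with the match 36 to 27 bases before the start site. The Trim30d sequence is chr7:104507851-104507920, minus strand, with the match 41 to 32 bases before the start. These 2 stretches are identical over their first 60 bases. The Trim12c sequence is chr7:104353350-104353408, minus strand, with the match 29 to 20 bases before the start. The Trim5 sequence is chr7:104288116-104288185, minus strand, with the match 49 to 40 bases before the start, and it is identical to that of Trim12c over the first 48 bases. The Trim26 sequence is chr17:36836956-36837025, plus strand, with the match 160 to 151 bases before the start and a second, overlapping match 154 to 145 bases before it. Trim26 lies outside the cluster, on chromosome 17. Matches in Trim12a, Trim21, Trim34a and Trim2 lie after the start site and are not printed. The same holds for a match at a second annotated start of Trim30a, in the window chr7:104446076-104446375. Trim2 has several annotated starts, and only the window chr3:84212789-84213088 holds a match.

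All 67 members are protein-coding in the GENCODE M21 annotation of GRCm38, and 39 of them passed the filter on low counts. The 28 members that were not tested include 11 with no count in any library. Among these are Trim54, Trim55 and Trim63, the muscle RING finger ligases of the sarcomere. The other 17 had 1 to 53 counts over all 9 libraries, and none exceeded 0.742 CPM in any library, the level of Trim7. Trim72, which takes part in muscle membrane repair, Trim71, a stem cell regulator of RNA, and Trim38, known from Toll-like receptor signalling, had 1 count each. All counts of called genes below are over the 39 tested members only. A gene can pass the filter through the group where it is high, so these counts describe the tested members and not the family.

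Summed over all members, the family held a nearly even share of the unscaled counts. It took 0.166 ± 0.004% of all counts in the untreated-labelled, 0.159 ± 0.002% in the Pam3CSK4-labelled and 0.159 ± 0.006% in the 3SL-labelled libraries (mean ± SD, n = 3). These shares use totals without TMM factors, which were 0.916 to 0.927, 1.14 to 1.15 and 0.944 to 0.953 in the same order of groups. On the scaled library sizes the family's share was therefore lower in the Pam3CSK4-labelled than in the other libraries. The make-up of the family also differed. Levels of different genes were compared per kilobase of annotated exon, as RPKM from the scaled library sizes. In the untreated-labelled libraries Trim30a led with 98.0 RPKM, followed by Trim35 with 34.7 and Trim30d with 29.6. Trim30a and Trim35 did not overlap the next gene in this order. From Trim30d through Trim13, Trim8 and Trim21 down to Trim28 at 24.1 RPKM, each gene overlapped the next over the 3 libraries. In the Pam3CSK4-labelled libraries the order was Trim28 with 44.3, Trim35 with 42.2, Trim30a with 29.3 and Trim8 with 25.7 RPKM, none overlapping the next. In the 3SL-labelled libraries Trim30a led again with 80.7 RPKM, before Trim35 with 35.6 and Trim8 with 29.2. Trim30a made up 22.6 ± 0.65%, 9.36 ± 0.58% and 20.2 ± 1.49% of the summed TRIM RPKM in the untreated-, Pam3CSK4- and 3SL-labelled libraries, and Trim28 made up 5.57 ± 0.22%, 14.2 ± 0.47% and 6.40 ± 0.48%.

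**Figure D1:**
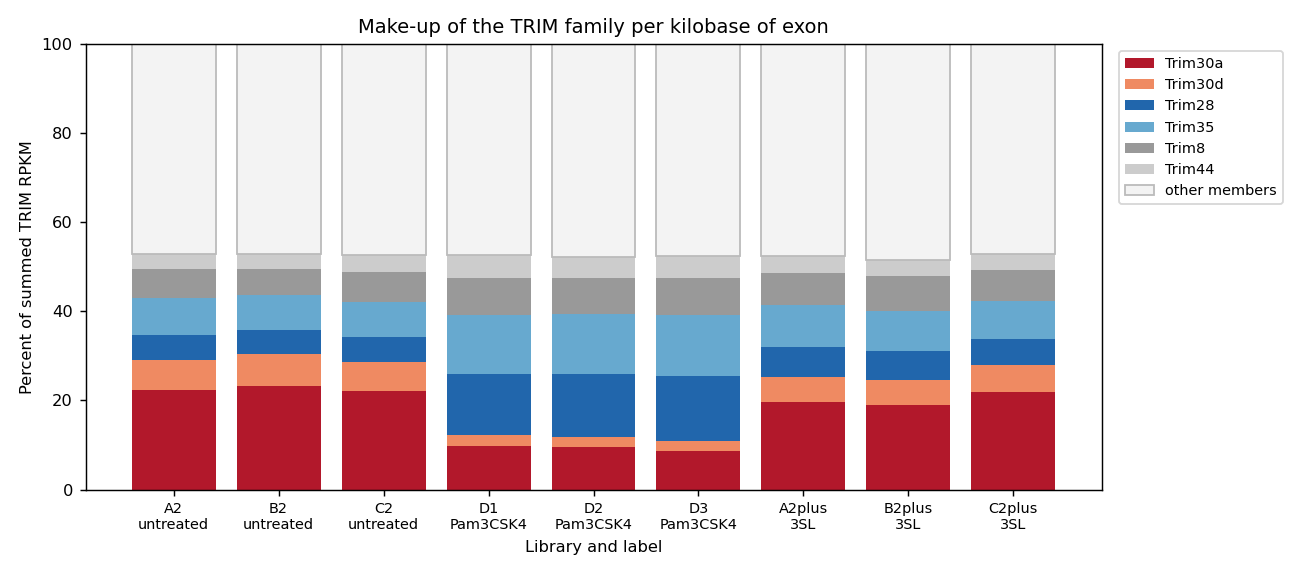
Share of the summed TRIM RPKM taken by 6 named members in each of the 9 libraries, in percent on an axis from 0 to 100, with the remaining members in pale grey. Trim30a takes 9.36% on average in the Pam3CSK4-labelled libraries against 22.6% and 20.2% in the others, and Trim28 takes 14.2% against 5.57% and 6.40%.

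The first comparison set the Pam3CSK4-labelled against the untreated-labelled libraries, the contrast the labels present as the response to the lipopeptide. 8 of the 9 tested genes of the Trim5/Trim30 cluster, with Trim13, Trim36 and Trim21, were lower in the Pam3CSK4-labelled libraries, and Trim65, Trim37, Trim47 and the chromatin-linked Trim24 and Trim28 were higher. Of the 39 tested members, 30 were called at an adjusted p below 0.05, a share of 76.9% beside 75.0% of all 11469 genes tested, a share near that of all genes and so no result about the members. There were 13 called higher, beside 39.0% of all genes, and 17 called lower, beside 35.9% of all genes. With a fitted change of at least 2-fold, 9 members were lower and 3 higher, beside 10.8% and 13.2% of all genes. The groups did not overlap in 31 members, beside 76.0% of all genes. The median fitted log2 change was -0.13 over the members and 0.03 over all genes, and the median size regardless of sign was 0.78 and 0.45. In bulk libraries, fewer cells with a transcript and less of it per cell cannot be told apart.

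Within the cluster, 8 of 9 tested members were called lower and none higher, beside 35.9% and 39.0% of all genes. The cluster's median log2 change was -1.03, beside 0.03 over all genes. Trim30a (chr7:104409025-104465193, minus strand) is known as a brake on Toll-like receptor signalling that acts on TAB2 and TAB3. It stood at 389, 432.9 and 387.2 CPM in the untreated-labelled, 128.5, 121.5 and 111.5 in the Pam3CSK4-labelled and 314, 305.1 and 376.1 in the 3SL-labelled libraries. The Pam3CSK4-labelled libraries were the lowest and overlapped neither group, and all 3 3SL-labelled values lay below the untreated-labelled ones. The fitted log2 change from untreated-labelled to Pam3CSK4-labelled was -1.75 (SE 0.060, edgeR adjusted p = 4.23e-20).

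Trim30d, its nearest copy, stood at 107.4, 122.2 and 103.5 CPM, then 27.7, 27.7 and 25.5, then 82.4, 82.5 and 94.8 in the same order of groups. The order of the 3 groups was that of Trim30a, and the log2 change was -2.06 (SE 0.067, edgeR adjusted p = 1.07e-20). Trim30c stood at 25.8, 29.4 and 25.8 CPM, then 4.96, 4.42 and 4.74, then 16.6, 16.7 and 25.7. Its log2 change was -2.55 (SE 0.13, edgeR adjusted p = 7.38e-16). The 3SL-labelled library C2plus stood apart from its group and just under the untreated-labelled range. Trim30b, the least abundant of the 4 copies, stood at 4.69, 6.11 and 6.89 CPM, then 2.16, 1.89 and 2.14, then 5.76, 5.29 and 6.10. Its Pam3CSK4-labelled libraries were again apart from both other groups, which overlapped each other, and its log2 change was -1.51 (SE 0.18, edgeR adjusted p = 2.78e-08).

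Trim12c and Trim12a are mouse relatives of the retroviral capsid restriction factor TRIM5. Trim12c stood at 50.4, 50.4 and 45.6 CPM, then 24.8, 25.03 and 22.5, then 38.8, 43.4 and 44.5 in the untreated-, Pam3CSK4- and 3SL-labelled libraries. Trim12a stood at 19.4, 24.5 and 19.8 CPM, then 11.9, 12.5 and 11.6, then 18.1, 16.6 and 18.3. In both, no Pam3CSK4-labelled library reached the other groups, and the log2 changes were -1.03 (SE 0.068) and -0.86 (SE 0.096), with edgeR adjusted p of 1.48e-13 and 6.32e-09. Trim34a stood at 22.9, 27.1 and 22.1 CPM, then 15.4, 12.9 and 10.3, then 22.8, 22.2 and 25.9. Its log2 change was -0.94 (SE 0.11, edgeR adjusted p = 6.25e-09), with the 3SL-labelled values inside the untreated-labelled range.

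Trim6, which forms unanchored ubiquitin chains in interferon signalling, stood at 2.91, 2.98 and 2.55 CPM, then 1.52, 1.49 and 1.22, then 2.67, 3.72 and 3.36. These low levels gave a wide error, with a log2 change of -1.02 (SE 0.23, edgeR adjusted p = 2.4e-04). Trim5 was the exception among the tested copies. It stood at 6.78, 5.49 and 6.04 CPM, then 4.88, 5.45 and 4.36, then 5.62, 5.58 and 5.79, and its log2 change of -0.28 was not called (95% interval -0.57 to 0.02, edgeR adjusted p = 0.084). Without the untreated-labelled library B2 it was -0.39 (edgeR adjusted p = 0.041), and scaled by library size alone it was 0.04.

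Neighbouring copies can share reads, and how the authors counted reads that fit several genes was not given in the sources used here. Of all stretches of 50 bases in the annotated transcripts, 59.7% of those of Trim34a also occur in another gene, with 39.8% in Trim34b, which had 6 counts in all. For Trim5 the share was 36.6%, with 23.5% in Trim12c, and for Trim12c 33.7%, with 24.2% in Trim5. The counts of Trim34a, Trim5 and Trim12c are therefore uncertain. For Trim12a the share was 10.5%, for Trim30d 7.49%, for Trim30a 5.98%, for Trim30b 1.48% and for Trim30c 0.66%. The 4 Trim30 copies are thus largely distinct at this length, and each was called lower.

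**Figure D2:**
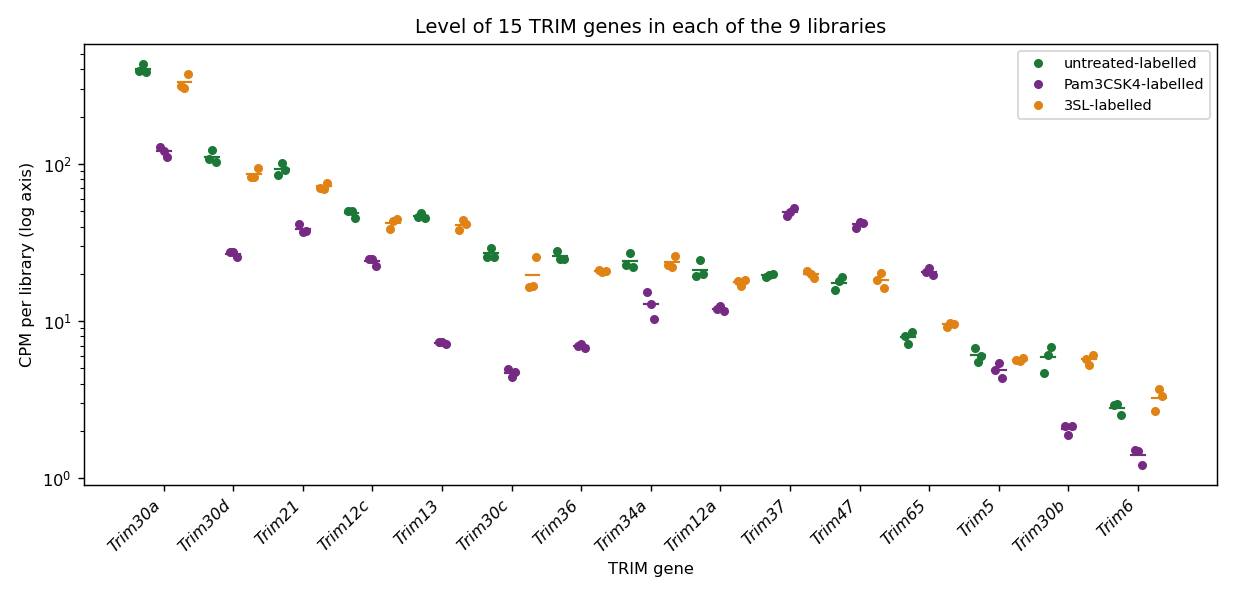
CPM per library on a log axis for 15 TRIM genes, ordered by their level in the untreated-labelled libraries; each point is 1 of the 9 libraries and each short line a group mean. The Pam3CSK4-labelled points lie above both other groups in Trim37, Trim47 and Trim65 and below both in the other genes, by a wide gap in Trim13 and narrowly in Trim5.

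Outside the cluster, Trim13 had the most negative log2 change of the 39 members in this comparison. It encodes a ligase anchored in the endoplasmic reticulum membrane. It stood at 45.9, 49.1 and 45.4 CPM in the untreated-labelled, 7.36, 7.35 and 7.11 in the Pam3CSK4-labelled and 38.2, 43.9 and 41.5 in the 3SL-labelled libraries. The 3 Pam3CSK4-labelled values were nearly equal and far below the rest, and the log2 change was -2.69 (SE 0.082, edgeR adjusted p = 2.61e-21). Of its stretches of 50 bases, 14.2% also occur in the predicted gene Gm9359.

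Trim36, a microtubule-associated ligase of the COS box class, stood at 27.9, 25.03 and 25.03 CPM, then 6.96, 7.12 and 6.73, then 21.2, 20.5 and 20.9. The 3 groups did not overlap, and the log2 change was -1.90 (SE 0.090, edgeR adjusted p = 7.72e-17). It was the 1 member called of the 3 tested in that class, where 75.0% of all genes were called. The others tested were Trim9 and Trim46, which are best known from neurons and reached at most 2.64 and 1.55 CPM. The 4 neuron markers summed to 14 to 22.5 CPM over the libraries. Of them 2 were higher under the 3SL label than under the Pam3CSK4 label, beside 34.7% of all genes.

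Trim21, the cytosolic receptor for antibody on incoming viruses, stood at 85.4, 102 and 91.5 CPM, then 41.6, 36.8 and 37.5, then 70.3, 69.3 and 76.2. Each group was apart from the others, and the log2 change was -1.29 (SE 0.063, edgeR adjusted p = 1.47e-16). Among the 13 tested SPRY members outside both the cluster and the COS box class, 4 were called lower and 7 higher, beside 35.9% and 39.0% of all genes. Besides Trim21, those lower were Trim14, an adaptor of the RNA sensing protein MAVS that lacks a RING finger (log2 change -0.55), Trim26 (-0.38) and Trim41 (-0.13). Of the stretches of Trim14, 33.9% also occur elsewhere, with 29.5% in the gene Nans, so its counts are uncertain.

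Those higher with a SPRY domain were Trim65, Trim47, Trim68, Trim62, Trim16, Trim27 and Trim35. Trim65, a ligase of the RNA sensor MDA5, stood at 8.04, 7.18 and 8.59 CPM, then 20.6, 21.9 and 19.6, then 9.14, 9.79 and 9.66. Trim47 stood at 15.8, 17.9 and 19.0 CPM, then 39.2, 42.5 and 42.0, then 18.3, 20.2 and 16.2. In both, all Pam3CSK4-labelled libraries lay above the other groups, and the log2 changes were 1.43 (SE 0.095) and 1.24 (SE 0.076), with edgeR adjusted p of 1.34e-13 and 2.46e-14. The 2 genes overlap on the minus strand of chromosome 11, at chr11:116105752-116127210 for Trim47 and chr11:116121846-116131128 for Trim65, and 6.58% of the stretches of Trim47 also occur in Trim65. The other 5 had log2 changes from 0.27 for Trim35 to 0.78 for Trim62. Trim68 stood at 3.10, 2.49 and 2.23 CPM in the untreated-labelled and 2.48, 5.22 and 4.59 in the Pam3CSK4-labelled libraries, which overlap. Without the library D2 its log2 change of 0.44 was not called (edgeR adjusted p = 0.117).

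Trim37, a ligase known from histone H2A and from control of the centriole, stood at 19.1, 19.7 and 19.9 CPM, then 46.7, 49.7 and 52.7, then 20.8, 19.9 and 18.8. The Pam3CSK4-labelled libraries were well above the rest, and the log2 change was 1.35 (SE 0.067, edgeR adjusted p = 2.13e-16). No stretch of its transcripts occurs in another gene. Trim59, a membrane-anchored member, was also higher, with a log2 change of 0.79. Trim23, which carries an ARF-like GTPase domain, and Trim45 were not called.

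Among the PHD-bromodomain members, which read chromatin, 2 of 3 tested were called higher, beside 39.0% of all genes. Trim28, the corepressor of KRAB zinc finger proteins that silences retroelements, stood at 100.2, 99.8 and 101.1 CPM, then 180.9, 182.2 and 189.6, then 109.9, 106 and 102.2. The Pam3CSK4-labelled libraries lay above all others and the log2 change was 0.88 (SE 0.039, edgeR adjusted p = 1.93e-17). Trim24 was higher by 0.90 on the log2 scale. Trim33 was not called, at -0.04 (95% interval -0.15 to 0.07), an interval that does not reach the values of Trim24 and Trim28, but with library size as the only scaling it was called higher, at 0.27. Trim28 and Trim24 stood at a mean of 184.2 and 18.6 CPM in the Pam3CSK4-labelled libraries, against 100.4 and 9.75 CPM in the untreated-labelled ones.

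The NHL repeat members, known as RNA and cytoskeleton regulators, were mixed. Trim2 and Trim32 were higher by 0.87 and 0.37, and Trim3 was lower, at -0.69 on the log2 scale. Among members with no further C-terminal domain, Trim56, a ligase of the DNA and RNA sensing pathways, was lower at -0.999, just short of 2-fold, with means of 78.4 CPM in the untreated-labelled and 39.4 in the Pam3CSK4-labelled libraries. Trim8, at -0.10, was called lower, but with library size as the only scaling its change was 0.21 and that of Trim41 was 0.18, so the directions of Trim8 and Trim41 depend on the scaling, and Trim26, at -0.06, was no longer called. That scaling moved the median of all genes by 0.31 and gave 20 members higher and 14 lower, and the share of higher among all called genes went from 52.0% to 74.3%. The calls of Trim8 and Trim41 were also lost when genes were not filtered and without some single libraries, which were A2, C2, D2 or D3 for Trim8 and B2, C2, D1 or D3 for Trim41.

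**Figure D3:**
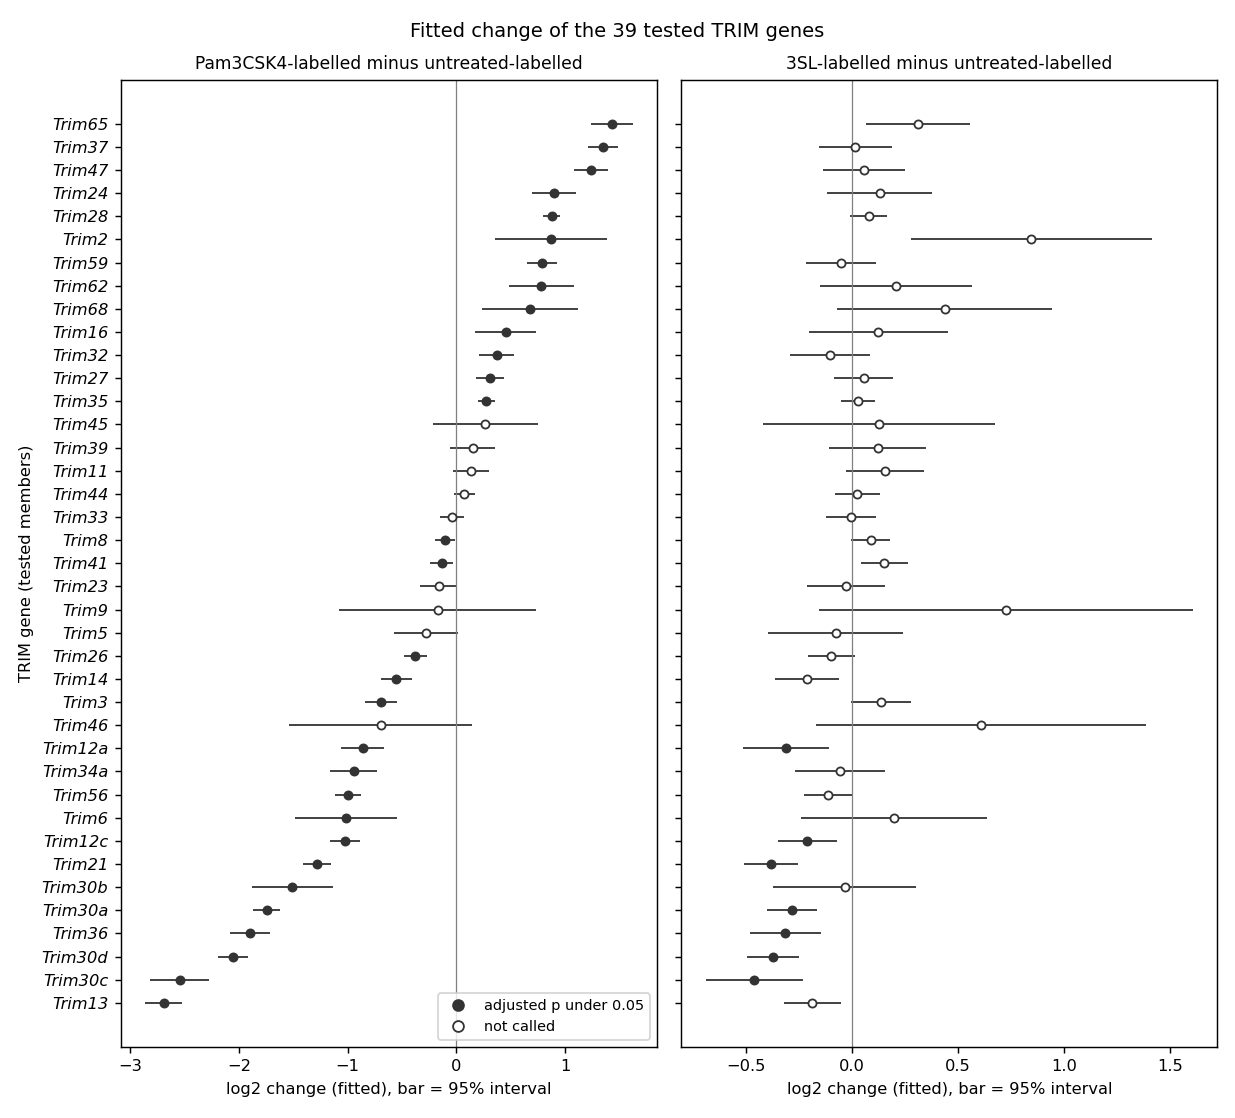
Fitted log2 change of the 39 tested TRIM genes with its 95% interval, Pam3CSK4-labelled minus untreated-labelled on the left and 3SL-labelled minus untreated-labelled on the right, on separate scales; filled points passed an adjusted p of 0.05. On the left the values run from -2.69 for Trim13 to 1.43 for Trim65, and on the right 7 members are filled, all below 0.

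The second comparison set the 3SL-labelled against the Pam3CSK4-labelled libraries, which the labels present as adding 3SL to the same dose of Pam3CSK4. It shares the Pam3CSK4-labelled libraries with the first, so the 2 are not independent, and no likeness between them is given as a result. The members' values are those in the sentences above. Here 28 of 39 members were called, beside 71.5% of all genes. There were 18 called higher in the 3SL-labelled libraries, beside 34.7% of all genes, and 10 lower, beside 36.8%. At 2-fold or more, 8 were higher and 3 lower, beside 10.5% and 12.5% of all genes. The groups did not overlap in 30 members, beside 73.1% of all genes, and the median log2 change was 0.19 over the members and -0.02 over all genes.

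In the cluster 8 of 9 tested copies were called higher in the 3SL-labelled libraries and none lower, beside 34.7% and 36.8% of all genes. The log2 change was 2.09 (SE 0.15) for Trim30c, 1.69 (SE 0.073) for Trim30d, 1.47 (SE 0.21) for Trim30b and 1.46 (SE 0.062) for Trim30a. It was 1.22 (SE 0.25) for Trim6, 0.89 (SE 0.12) for Trim34a, 0.81 (SE 0.075) for Trim12c and 0.55 (SE 0.11) for Trim12a. Trim5, at 0.20, was not called (95% interval -0.14 to 0.54), and with library size alone it was -0.07.

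Outside the cluster Trim13 differed by 2.51 (SE 0.090, edgeR adjusted p = 1.22e-19), Trim36 by 1.58 (SE 0.10) and Trim21 by 0.90 (SE 0.070). Trim46 was called higher by 1.31 with an SE of 0.44 (edgeR adjusted p = 0.0100), at levels of only 0.24 to 1.55 CPM in these 6 libraries. Trim37, Trim47 and Trim65 were lower, at -1.33 (SE 0.076), -1.18 (SE 0.086) and -1.12 (SE 0.11). Trim28 was lower at -0.80 (SE 0.042), and Trim59, Trim24, Trim62, Trim32, Trim27 and Trim35 were lower, with values from -0.84 to -0.25. With library size as the only scaling, Trim8 turned from 0.19 to -0.08, and Trim14, Trim26 and Trim41 were no longer called higher. Trim11, Trim16, Trim33, Trim39 and Trim44 were then called lower. That scaling gave 14 members higher and 15 lower, and the share of higher among all called genes went from 48.5% to 27.6%.

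The third comparison set the 3SL-labelled libraries against those labelled untreated. It shares 1 group with each of the others. Differences here were small, and 7 members were called, all lower in the 3SL-labelled libraries, beside 8.94% of all genes called in either direction. The 7 called lower stand beside 5.11% of all genes, and the 0 called higher beside 3.83%. At an unadjusted p below 0.05, 9 members were lower and 3 higher, which were Trim2, Trim41 and Trim65, so 12 of 39 members passed beside 2437 of all 11469 genes. DESeq2 also called 0 higher. None of the 39 reached 2-fold, which 0.0610% of all genes did downward and 0.113% upward. The groups did not overlap in 16 members, beside 24.0% of all genes, and the median log2 change was 0.02 over the members and -0.00 over all genes.

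Of the 7 members called, 5 belong to the Trim5/Trim30 cluster, and the others were Trim21 and Trim36. The log2 change was -0.46 (SE 0.11) for Trim30c, -0.37 (SE 0.060) for Trim30d, -0.28 (SE 0.057) for Trim30a, -0.31 (SE 0.099) for Trim12a and -0.21 (SE 0.068) for Trim12c. For Trim21 it was -0.38 (SE 0.062) and for Trim36 -0.31 (SE 0.081). The edgeR adjusted p was 9.4e-05 for Trim21, 9.5e-05 for Trim30d, 0.00123 for Trim30a, 0.00707 for Trim30c and 0.0117 for Trim36, and it was 0.0470 for Trim12a and 0.0486 for Trim12c. In each of the 7, every 3SL-labelled library lay below every untreated-labelled one, by as little as 25.7 against 25.8 CPM in Trim30c. Trim30b, Trim34a, Trim5 and Trim6 of the same cluster were not called, with values of -0.04, -0.06, -0.08 and 0.20.

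Trim21 and Trim30d were called lower in 17 of 17 alternative settings, Trim30a in 16, Trim36 in 15 and Trim30c in 14, but Trim12c in 6 and Trim12a in 5. The count of 7 was 4 with DESeq2, 4 without the untreated-labelled library B2, 4 without the 3SL-labelled library A2plus and 3 without B2plus. The call was lost for Trim36 without A2 or B2plus and for Trim30c without B2, A2plus or B2plus, while without C2plus the value of Trim30c was -0.72. When single libraries were left out, the call of Trim12a held without A2 or C2, that of Trim12c held without C2, D3 or C2plus, and both were lost without any of the others; without B2 Trim12a was at -0.15. Trim13 (-0.19, edgeR adjusted p = 0.0792) and Trim14 (-0.21, edgeR adjusted p = 0.0701) were not called. Trim2 had the largest fitted value upward, at 0.85 (edgeR adjusted p = 0.0533). Its 3SL-labelled libraries stood at 4.92, 3.82 and 2.03 CPM and its untreated-labelled ones at 2.15, 1.86 and 1.80, which overlap. It was called without the library D2 and without C2plus. Trim37, Trim47 and Trim28, higher in the Pam3CSK4-labelled libraries, stood at 0.02, 0.06 and 0.08 here and were not called.

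**Figure D4:**
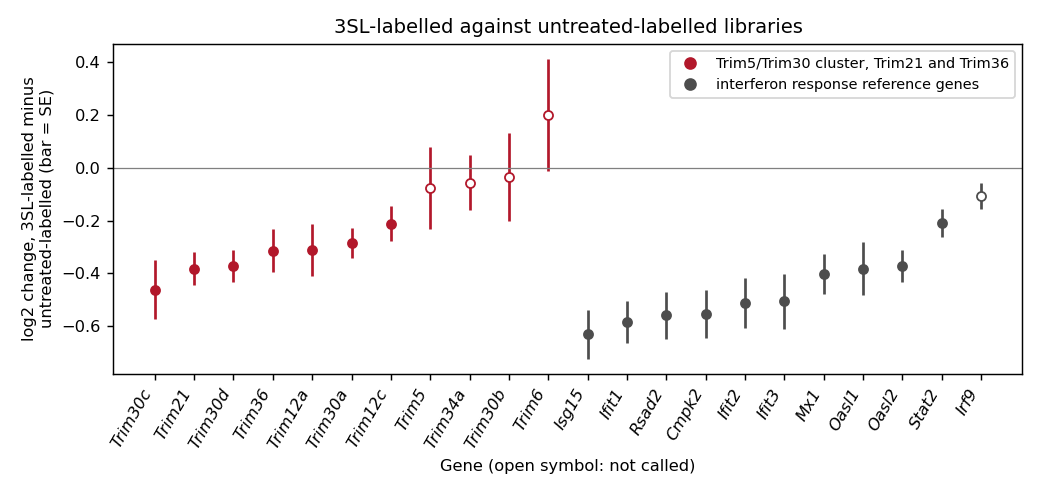
Fitted log2 change, 3SL-labelled minus untreated-labelled, with its SE, for the tested Trim5/Trim30 cluster members with Trim21 and Trim36 (red) and for 11 interferon response reference genes (grey); open points were not called. The called TRIM genes lie between -0.46 and -0.21, and the reference genes between -0.63 for Isg15 and -0.11 for Irf9.

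Promoter matches to the interferon-response-like motif were found in 9 of the 52 members in the table, or 17.3%, beside 3.99% of all 27025 genes and 3.44% of all 32851 promoters in it. By the first comparison, 7 of the 13 matched members called lower held a match, which were Trim12a, Trim12c, Trim21, Trim26, Trim30a, Trim30d and Trim34a. A match was also present in Trim2, 1 of the 10 called higher, in Trim5, 1 of the 7 not called, and in none of the 22 not tested. Trim30b and Trim30c, called lower, held none in this window, nor did Trim13, Trim6, Trim41 or Trim56. Trim3, Trim8, Trim14 and Trim36, also called lower, are not among the 52 and were not searched. Neighbouring copies share promoter sequence, as the printed pairs show, so these matches are not independent of each other. A second motif, GGG, any 2 bases, then TTTCC, on both strands, which resembles a site of the inflammatory factor NF-kB, was found in 0 of the 52 members and in 1.89% of all genes. A match is a string of letters and no evidence of binding.

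Known interferon-response genes were read from the same fits for comparison of size. All 11 were called lower in the Pam3CSK4-labelled than in the untreated-labelled libraries, beside 35.9% of all genes. The median log2 change was -2.62, from -4.21 for Ifit1 to -0.92 for Irf9. All 11 were called higher under the 3SL label than under the Pam3CSK4 label, beside 34.7% of all genes, with a median of 2.19. Between the 3SL-labelled and untreated-labelled libraries 10 of 11 were called lower, beside 5.11% of all genes. The list's median was -0.50, led by Ifit1 at -0.58 and Isg15 at -0.63. The cluster medians in the same 3 comparisons were -1.03, 1.22 and -0.21, beside medians of 0.03, -0.02 and -0.00 over all genes.

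TRIM proteins under other symbols were mixed. There were 5 among the deposited genes, of which 3 were tested. Mefv, which encodes the inflammasome sensor pyrin, stood at 107.5 ± 2.34 CPM in the untreated-labelled, 1.34 ± 0.57 in the Pam3CSK4-labelled and 93.5 ± 6.35 in the 3SL-labelled libraries, 76.8-fold lower in the Pam3CSK4-labelled than in the untreated-labelled ones. Pml, the organiser of nuclear bodies, was lower at -0.36 in the first comparison and higher by 0.28 in the second, and the microtubule-binding Mid1 was higher by 0.44 and lower at -0.34. In the third only Mefv of these 3 was called, at -0.20 (edgeR adjusted p = 0.0235), beside 8.94% of all genes.

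Of 12 E2 enzymes that RING ligases draw on, 10 were called lower and 1 higher in the Pam3CSK4-labelled than in the untreated-labelled libraries, beside 35.9% and 39.0% of all genes. Several of these differences were small, such as -0.17 for Ube2w, and the list's median log2 change was -0.30, beside 0.03 over all genes. Ube2e2 stood at 21.9 CPM in the untreated-labelled and 3.63 in the Pam3CSK4-labelled libraries, a log2 change of -2.60. Ube2d3 changed by -0.66 and Ube2l6, the E2 enzyme for the ubiquitin-like ISG15, by -1.09, while Ube2e3 was higher by 0.64. In the second comparison 7 were called higher and 1 lower, beside 34.7% and 36.8% of all genes. In the third Ube2l6 alone of the 12 was called, at -0.24, beside 8.94% of all genes.

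Of 16 innate signalling proteins that TRIM ligases are known to modify or work beside, 10 were lower and 4 higher in the Pam3CSK4-labelled than in the untreated-labelled libraries, beside 35.9% and 39.0% of all genes. Being called in either direction was common, at 75.0% of all genes, and the list's median log2 change was -0.45. The peptidoglycan sensor gene Nod2 changed by -3.52 and Ifih1, which encodes the RNA sensor MDA5, by -2.17. Those higher were Tmem173, the gene of STING (0.84), Tab1 (0.73), the DNA sensor gene Cgas (0.53) and Mavs (0.23). Tab2, a reported target of the Trim30a protein, changed by -0.94, and Tab3 was not called at -0.07. In the second comparison 10 were higher and 3 lower, beside 34.7% and 36.8% of all genes. The 3 lower were Tab1, Tmem173 and Cgas. Ikbkg had the smallest p of the list in the second comparison, with a log2 change of 1.26, and changed by -1.14 in the first. In the third, Ifih1 (-0.36), Nod2 (-0.44) and Irf7 (-0.23) were lower, beside 5.11% of all genes. None of the 16 was called higher, beside 3.83% of all genes.

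Deubiquitinases of the same pathways, which remove ubiquitin, gave 8 of 9 lower and 1 higher in the first comparison, beside 35.9% and 39.0% of all genes. Some of these differences were small, such as -0.18 for Otub1, and the list's median log2 change was -0.63. Tnfaip3, the gene of the ubiquitin-editing enzyme A20, changed by -3.36, from 843.8 to 82.6 CPM, and Usp25 by -1.28, while Otud7b was higher by 1.06. In the second comparison 7 were higher, beside 34.7% of all genes, and Otud7b was lower, at -1.27, beside 36.8% of all genes. In the third, Usp18, which cleaves ISG15, was lower at -0.43 and Tnfaip3 at -0.17, and the other 7 were not called. Of all genes, 5.11% were called lower there.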

How the data were processed

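Raw counts per gene, as the authors deposited them for the whole series, were the only values used. The submitters' processing notes name HISAT2 2.1.0, featureCounts and Subread, and the build hg38, although the identifiers are mouse. Which annotation and strand setting were used is not given in the sources used here. A further 15 columns belong to other samples and stayed out. Symbols came from a table pairing Ensembl identifiers with names, which named 21909 of 22001. Genes kept by filterByExpr, 11469 in all, went into edgeR 4.0.16 (R 4.3.3). The model had TMM factors and a mean for each group over the 9 libraries, and the quasi-likelihood test was adjusted by the Benjamini-Hochberg method over all genes tested (threshold 0.05). The scripts were tested on simulated data. The members, lists and tests were chosen with earlier results of these data known, and 1 gene of the interferon list is not reported here.

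Values in every library are given for members called with at least 2-fold change against the Pam3CSK4-labelled libraries and a mean log2 CPM of at least 2, for those called in the third comparison, and for tested cluster members. Trim28, Trim68 and Trim2 were added after their values were seen. Of each other list, the 2 genes with the smallest p and those against the list's direction were to be named. This was not done in every comparison, and other genes were chosen after their values were seen. Intervals are 95%, and floors of 3 counts cover counting error only. Alternatives were other scalings, filters, DESeq2 1.42.0, thinning, only the groups compared, a replicate block, and leaving out each library. Sequences are from RefSeq (GRCm38.p6) and coordinates from GENCODE M21.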

Additional observations from a re-analysis of the deposited data

How the results depend on the processing

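Counts of members called in the first 2 comparisons stayed within 1.5 times those reported under the alternatives run, except that library size as the only scaling gave 20 higher in place of 13 in the first. In the second that scaling gave 14 higher in place of 18 and 15 lower in place of 10, so most called members were then lower. In the third comparison the count higher was 2 with library size only (Trim2 and Trim41), 1 with no filter, 1 with only the 2 groups fitted and 1 with the replicate block, and 0 to 1 when leaving out single libraries. The count lower was 4 with DESeq2, and 3 to 7 when leaving out single libraries. Trim2 was the member called higher in each setting with 1, and Trim14 was called lower only without C2plus. Whether the letters A, B and C pair the samples is not settled. The same-letter correlations of deviations were -0.0167, 0.0424 and 0.00797, and those between different letters ran from -0.0327 to 0.0227. Not every library correlated best with its own letter. All these values are very small and rest on 3 libraries per group, so they cannot decide it. The replicate block on the letters gave 5 lower in the third comparison.

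Single values were followed under all alternatives for the members called in a comparison and for the 15 members given in every library. Of these, 1153 kept direction and side of the threshold, 44 were no longer called, 1 became called and 16 changed sign. With library size only, the log2 change in the first comparison was 0.18 for Trim41, 0.21 for Trim8 and 0.037 for Trim5, in the second -0.0747 for Trim5 and -0.0826 for Trim8, and in the third 0.0049 for Trim30b. Among the other members, library size only also turned Trim9 (0.14), Trim23 (0.15) and Trim33 (0.27, then called higher) in the first comparison, Trim11 (-0.25, then called lower), Trim23 (-0.14) and Trim33 (-0.24, then called lower) in the second, and Trim23 (0.012) and Trim33 (0.036) in the third. That scaling moved the share of higher among called genes in the third comparison from 42.8% to 66%. Thinned to the smallest total, Trim47 was -0.0337 in the third comparison. The other followed values that changed sign were uncalled values of the third comparison when leaving out single libraries, which ranged from -0.15 to 0.0323 for Trim30b, -0.14 to 0.0696 for Trim34a, -0.0116 to 0.0530 for Trim37, -0.0361 to 0.14 for Trim47 and -0.19 to 0.00357 for Trim5. Trim30c there ranged from -0.72 without C2plus to -0.34 without B2plus. The cause was not tested. Depth limits the low members most, such as Trim9 and Trim46, whose group means were 0.507 to 1.42 CPM.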
